A study of Homo sapiens with 4 samples.

Results

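Transposable element silencing factors are nuclear proteins that keep retrotransposons and endogenous retroviruses packed in repressive chromatin. The 10 genes described here are TRIM28, SETDB1, ATF7IP, MPHOSPH8, TASOR, PPHLN1, MORC2, ATRX, DAXX and CBX5. They were chosen by symbol for their known roles and not by a measured value, but with earlier results of these data known. All 10 were found among the 77973 genes of the gene table, and all 10 passed the minimum of a mean of 5 reads per library, as did 13789 genes in all.

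KRAB zinc finger proteins bind sequences within transposable elements and recruit TRIM28 (KAP1), a scaffold that brings in the histone H3 lysine 9 methyltransferase SETDB1, whose nuclear partner is ATF7IP. CBX5 encodes HP1 alpha, which binds methylated lysine 9. The HUSH complex, made of TASOR, MPHOSPH8 and PPHLN1 (periphilin), works with SETDB1 and the chromatin-compacting ATPase MORC2 to repress young, transcribed LINE-1 elements, and ATRX with DAXX deposits histone H3.3 at repeats. In postmitotic neurons these systems act beside DNA methylation, which 5-azacytidine inhibits when it is built into DNA.

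The libraries came from i3N cortical neurons that doxycycline-induced NGN2 had converted from KOLF2.1J, a widely used human iPSC line. Every library, control included, came from cells that express a dCas9-BFP-KRAB fusion for CRISPR interference, were transduced with a lentiviral guide and selected with puromycin as a pool. The groups were control (non-targeting guide, no 5-azacytidine), TDP-43 CRISPRi knockdown without the drug, 5-azacytidine with the non-targeting guide (5 µM for 72 hours, added after overnight attachment of spheroids plated on day 8), and the drug with the TDP-43 guide. Cultures were harvested on day 12 or 15, and the labels do not say which day belongs to which library. There was 1 library per group, so no replicate stands behind any difference, and each test compares the reads of 2 libraries and not the conditions.

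The polyadenylated RNA was read by PacBio long-read sequencing, and depth ranged from 466337 reads assigned to genes in the 5-azacytidine library to 767621 in the knockdown library. TARDBP, the targeted gene, was read 104 times in control, 72 times after knockdown, 73 times after 5-azacytidine and 43 times after both, which is a log2 ratio of -0.67 for the knockdown and -0.73 for the knockdown on top of the drug (binomial test, adjusted p = 0.0213 and 0.0738). All 14 neuron markers were read in every library, with summed levels between 2956 and 3940 CPM, the reads scaled to each library's effective size. Single neuron markers moved more than the sum, with log2 ratios from -1.73 to 2.23 in both treatments against knockdown. The 13 proliferation markers summed to 1432 and 1429 CPM in the libraries without 5-azacytidine and to 178 and 155 in those with it, and the 10 neural progenitor markers to 923 and 842 against 182 and 146. SOX1, a defining progenitor gene, was at 0 reads in both libraries with the drug, and MKI67 at 2 and 1 reads. Of the 10 progenitor markers, 1 was at 0 reads with 5-azacytidine and 3 with both treatments, against 0 in each library without the drug. Only 7 of the 10 averaged at least 5 reads. Of these 7, 0 had a log2 ratio above 0 in 5-azacytidine against control, and 1 did in both treatments against knockdown, at 0.17. In such bulk libraries, fewer cells of a type and less RNA per cell cannot be told apart.

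None of the 10 silencing factors was called in the same direction in both pairs of libraries that share no library, for either treatment. ATRX came nearest for 5-azacytidine: it was lower in both pairs with an adjusted p under 0.05, and in 1 pair by less than 1.5-fold. Reads of a gene in a pair of libraries were set against their effective sizes in a two-sided exact binomial test, and a call needed a ratio of at least 1.5-fold and a p-value under 0.05 after Benjamini-Hochberg adjustment over all 13789 genes. The pairs for the knockdown were knockdown against control and both treatments against 5-azacytidine, and those for the drug were 5-azacytidine against control and both treatments against knockdown. Among all genes, 1.68% were called in both pairs for the knockdown and 11.5% for 5-azacytidine. At 2-fold it was again 0 members, against 0.776% and 8.65% of all genes. Additive models over the 4 libraries gave 0 members at an adjusted p under 0.05 with edgeR's quasi-likelihood test and 0 with DESeq2. Over all 13789 genes at that level, edgeR called 0 for the knockdown and 896 for the drug, and DESeq2 called 10 and 203. With 0 calls among all genes, edgeR could give no member for the knockdown. At an unadjusted p under 0.05, edgeR gave 0 members for the knockdown and 1 for the drug, ATRX, and DESeq2 gave 0 and 0. The shares of all genes at this unadjusted level were not counted.

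**Figure D1:**
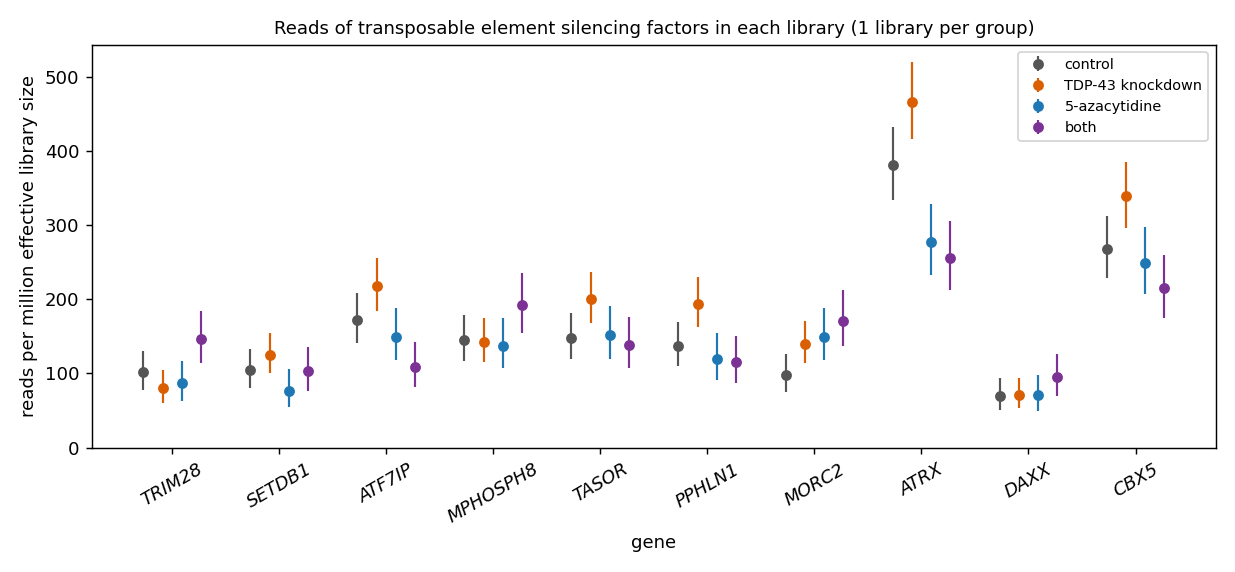
CPM (reads scaled to effective library size) (linear axis from 0) for each of the 10 genes in the 4 libraries, with bars for exact 95% Poisson intervals, which cover counting error only. ATRX reads are highest in the knockdown library and lowest in the 2 libraries with 5-azacytidine, while DAXX stays between 69.4 and 94.9 in all 4.

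TRIM28 (ENSG00000130726.12, chromosome 19, 58544064 to 58550722, hg38) was read 63 times in control, 55 times after knockdown, 43 times after 5-azacytidine and 71 times after both treatments. Scaled to library size these were 102, 80.3, 87.0 and 146 CPM, so in gene reads only the library with both treatments stood above the control. Against the knockdown library, its log2 ratio of 0.87 passed the test (adjusted p = 0.00382), and against the 5-azacytidine library the ratio was 0.74 (adjusted p = 0.0592). In the other comparisons the log2 ratio was -0.34 for knockdown against control and -0.22 for 5-azacytidine against control. In full-length TRIM28 reads the ratio of both treatments to knockdown turned to -0.07, and in uniquely assigned reads it was 0.08 (adjusted p = 0.995). Of the gene reads, 20, 23, 14 and 40 in the same order were assigned to none of its transcripts. Those assigned to a transcript numbered 43, 32, 29 and 31 before scaling, so in these estimated reads the combined library did not stand above the control. The control had 380226 transcript reads in all and the combined library 288441. Uniquely assigned TRIM28 reads were 19 of 210957 in control and 18 of 165033 with both treatments, so this order depends on the reads counted.

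SETDB1 (ENSG00000143379.13, chromosome 1, 150926263 to 150964744), the methyltransferase that TRIM28 recruits, had 65 control reads, 86 knockdown reads, 38 with the drug alone and 50 with both treatments. Its scaled levels of 105, 125, 76.9 and 103 CPM gave no ratio that passed the test, and the farthest from 0 was -0.44 for 5-azacytidine against control (95% interval -1.06 to 0.15).

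ATF7IP (ENSG00000171681.13, chromosome 12, 14365676 to 14502931), which keeps SETDB1 stable in the nucleus, had 107, 149, 74 and 53 reads in the same order, or 173, 217, 149.7 and 109 CPM. The level was lowest with both treatments and highest with the knockdown alone. Both treatments against knockdown gave a log2 ratio of -0.98 (95% interval -1.47 to -0.53, adjusted p = 7.25e-05). For 5-azacytidine against control the ratio was -0.20, with an interval from -0.65 to 0.24.

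CBX5 (ENSG00000094916.16, chromosome 12, 54230942 to 54280133) had 166, 232, 123 and 104 reads, or 268, 338.5, 249 and 215 CPM. Here too the knockdown library was the highest, and both treatments against knockdown passed the test at a log2 ratio of -0.65 (adjusted p = 0.000543), whereas 5-azacytidine against control gave -0.10.

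Of the HUSH subunits, TASOR (ENSG00000163946.14, chromosome 3, 56620132 to 56683265), the scaffold of the complex, had 92, 137, 75 and 67 reads, or 148, 199.9, 152 and 138 CPM. The knockdown library had the highest level, with a counting interval that overlapped those of the other 3, and knockdown against control gave 0.43 (adjusted p = 0.133). Both treatments against knockdown gave -0.53, which passed the p-value (0.0394 after adjustment) and not the ratio, at 0.694 of the knockdown level.

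MPHOSPH8 (ENSG00000196199.14, chromosome 13, 19633659 to 19673441), whose chromodomain binds methylated lysine 9, had 90, 98, 68 and 93 reads, and 145, 143, 138 and 192 CPM. The combined library was the highest, and no ratio passed the test, the largest being 0.48 for both treatments against 5-azacytidine (adjusted p = 0.199). PPHLN1 (ENSG00000134283.18, chromosome 12, 42238447 to 42459715), the RNA-associated subunit, had 85, 133, 59 and 56 reads, or 137, 194, 119 and 116 CPM. Its ratio of both treatments to knockdown passed the test at a log2 value of -0.74 (adjusted p = 0.00417). Counted only in reads uniquely assigned to PPHLN1 transcripts, this ratio turned to 0.50, and in full-length reads to 1.07.

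MORC2 (ENSG00000133422.14, chromosome 22, 30925130 to 30968774), an ATPase that works with HUSH, was above its control level in all 3 other libraries, as DAXX was by less. Its 61 control reads compare with 96 after knockdown, 74 after 5-azacytidine and 83 after both, or 98.4, 140.1, 149.7 and 171 CPM. None of its ratios passed the test: 5-azacytidine against control gave 0.60 (95% interval 0.10 to 1.12, adjusted p = 0.0651) and knockdown against control 0.51 (adjusted p = 0.1396).

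ATRX (ENSG00000085224.23, chromosome X, 77504880 to 77786233), the remodeller that works with DAXX, had 236, 319, 137 and 124 reads, or 381, 465, 277 and 256 CPM. Both libraries with the drug lay below both libraries without it, and the counting intervals of the 2 sets did not overlap. Against control, 5-azacytidine gave a log2 ratio of -0.46 (95% interval -0.77 to -0.15, adjusted p = 0.0185), short of 1.5-fold, and both treatments against knockdown gave -0.86 (interval -1.17 to -0.56, adjusted p = 1.05e-07). In reads uniquely assigned to ATRX transcripts the first ratio was -0.0080 (adjusted p = 1.00) and the second -0.69 (adjusted p = 0.0560), so neither passed. The edgeR additive model put the drug's effect at -0.66 with a standard error of 0.27 and an adjusted p of 0.172. The summed proliferation and progenitor markers above move with the drug as well, and their part in the ATRX values was not tested. DAXX (ENSG00000204209.13, chromosome 6, 33318558 to 33323016), the H3.3 chaperone, had 43, 49, 35 and 46 reads, or 69.4, 71.5, 70.8 and 94.9 CPM, and no ratio passed the test.

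In knockdown against control, 0 of 10 members were called, where 13.5% of all genes were. The unadjusted p was under 0.05 for 5 members, TASOR, PPHLN1, MORC2, ATRX and CBX5, each at a ratio above 0, and for 25.8% of all genes in either direction. That count was 1 when scaled by total gene reads (TRIM28, at -0.56) and 1 with DESeq2 size factors (PPHLN1, at 0.40). The members' median log2 ratio was 0.31 against 0.13 for all genes, and 8 of 10 lay above 0, as did 58.7% of all genes. In both treatments against 5-azacytidine 0 of 10 were called, with 2 at an unadjusted p under 0.05 (21.8% of all genes), where 9.86% of all genes were called; the median was 0.07 against 0.03, with 5 members on each side of 0 and 51.2% of all genes above it.

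In 5-azacytidine against control 0 of 10 were called, with 2 at an unadjusted p under 0.05 (MORC2 and ATRX, against 32.7% of all genes), where 21.0% of all genes were called. The members' median was -0.15 against 0.06. In both treatments against knockdown 1 member was called higher (TRIM28) and 4 lower (ATF7IP, PPHLN1, ATRX and CBX5), where 32.8% of all genes were called, 12.5% higher and 20.3% lower. The median was -0.40 against -0.09. Scaled by total gene reads, 4 members were called: PPHLN1 (-0.56) and CBX5 (-0.47) fell short of 1.5-fold, and MPHOSPH8 passed at 0.61 (adjusted p = 0.0142), which leaves TRIM28 and MPHOSPH8 higher and ATF7IP and ATRX lower. That scaling moved the members' median to -0.22 and that of all genes to 0.09. The knockdown library, which held the highest level of each of these 4 lower members, serves in this comparison and in knockdown against control, so the 2 are not independent.

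**Figure D2:**
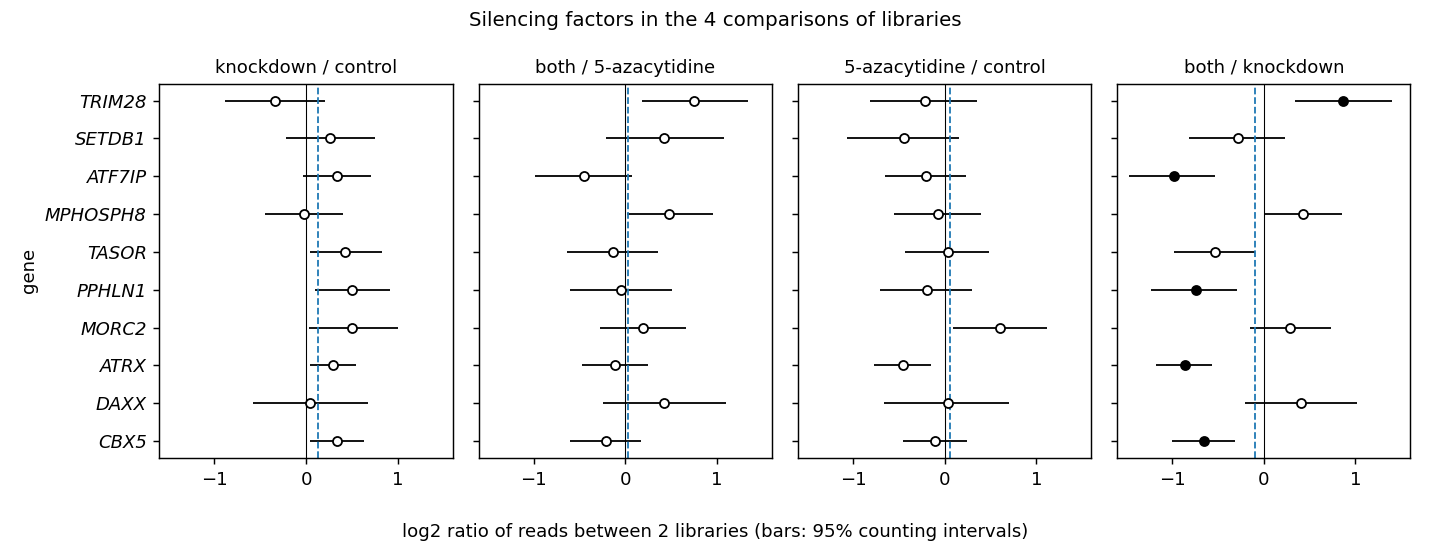
Log2 ratios of reads for the 10 genes in the 4 comparisons, with bars for 95% counting intervals, filled points for called ratios and a dashed line at the median of all genes tested. Filled points occur in the comparison of both treatments with the knockdown alone, where TRIM28 lies at 0.87 and ATF7IP, PPHLN1, ATRX and CBX5 lie between -0.98 and -0.65.

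Depth sets what these comparisons can show. The 95% interval of the ratio lay within 2-fold in either direction for all 10 members in knockdown against control, 8 in 5-azacytidine against control, 7 in both treatments against 5-azacytidine and 4 in both treatments against knockdown. For the members inside that range a difference above 2-fold between these libraries is outside the counting interval. Smaller differences were often not detectable at 35 to 319 reads per gene.

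Genes that work with the silencing factors were read from lists of related genes, with a call required in both pairs at 1.5-fold. For the knockdown, where 1.23% of all genes were called higher and 0.457% lower, WIZ, a zinc finger partner of the G9a and GLP methyltransferases, was the 1 of 10 tested HP1 paralogues and lysine 9 methylation genes that was called. WIZ reads numbered 47 in control, 121 after knockdown, 57 after 5-azacytidine and 104 after both, with log2 ratios of 1.21 and 0.89 (adjusted p = 1.38e-05 and 0.00324). CABIN1, a subunit of the HIRA histone H3.3 chaperone complex, was the 1 of 10 tested H3.3 and chaperone genes called higher. Its reads were 90, 150, 54 and 173, and its ratios 0.59 and 1.70 (adjusted p = 0.0173 and 1.22e-13), so the second pair held the larger difference. None of 17 TRIM28 partner and SUMO genes, 10 HUSH-associated genes, 13 KRAB zinc finger genes or 6 retroelement restriction factors was called for the knockdown by this rule. The 4 libraries gave edgeR 0 calls for the knockdown over all genes and DESeq2 10.

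For 5-azacytidine, where 3.98% of all genes were called higher and 7.48% lower in both pairs, 5 related genes were lower and 1 higher. The lower ones were 1 of 10 tested HP1 paralogues and lysine 9 methylation genes and 1 of 17 TRIM28 partner and SUMO genes. They were also 1 of 10 H3.3 and chaperone genes and 2 of 6 restriction factors. Over all the lists together, lower calls were about as frequent as among all genes, and higher calls were less frequent. SUV39H2, a lysine 9 methyltransferase of constitutive heterochromatin, had 51, 58, 14 and 11 reads and log2 ratios of -1.50 and -1.85 (adjusted p = 0.00168 and 6.45e-05). HDAC1, a deacetylase of the TRIM28 corepressor complex, had 48, 48, 16 and 17 reads, with ratios of -1.23 and -0.97 (adjusted p = 0.0113 and 0.0368). CHAF1B, a subunit of the replication-coupled chaperone CAF-1, had 35, 31, 8 and 9 reads, with ratios of -1.74 and -1.23 (adjusted p = 0.00502 and 0.0463). In all 3, both libraries with the drug lay below both without it.

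Of the 6 tested restriction factors, MOV10, a helicase that limits LINE-1, had 39, 74, 12 and 16 reads, with ratios of -1.33 and -1.68 (adjusted p = 0.0176 and 2.66e-05). ZC3HAV1, the zinc finger antiviral protein ZAP, had 37, 39, 11 and 7 reads, with ratios of -1.38 and -1.90 (adjusted p = 0.0196 and 0.00137). H3-3B, which encodes histone H3.3, was the gene called higher, with 122, 109, 208 and 171 reads and ratios of 1.09 and 1.15 (adjusted p = 9.03e-10 and 1.34e-09). H3-3B has processed pseudogenes that could share its reads, so its value is uncertain. None of 10 HUSH-associated or 13 KRAB zinc finger genes was called for the drug. The proliferation markers, of which 9 of 12 tested were called lower in both pairs, and the progenitor markers, of which 5 of 7 were, moved with these genes, and their part in the result was not tested.

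Many reads of the silencing factors were assigned to the gene but to none of its transcripts. Over whole libraries such reads made up 36.1% of gene reads in the control, 41.5% in the knockdown, 31.9% in the 5-azacytidine and 39.6% in the combined library. CBX5 had the lowest shares, with 8 of 166, 21 of 232, 7 of 123 and 10 of 104 reads, or 4.82%, 9.05%, 5.69% and 9.62%. In the other 9 members the share lay between 17.5% and 64.7%.

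TASOR differed most between libraries. Of 92 control TASOR reads, 52 fell in no transcript (56.5%, Wilson bounds 46.3 and 66.2%). After knockdown it was 24 of 137 (17.5%, 12.1 and 24.7%), after 5-azacytidine 41 of 75 (54.7%) and after both 27 of 67 (40.3%). The knockdown library was the lowest, and its interval was clear of those of the other 3. The fall of 39.0 percentage points against control passed Fisher's exact test (adjusted p = 1.43e-07 over the 8145 genes that averaged 20 reads or more). Of these genes, 2.36% were called lower, with an adjusted p under 0.05 and a fall of at least 10 points. The median gene moved by 3.50 points the other way. Both treatments against 5-azacytidine moved the same way by -14.4 points and did not pass (adjusted p = 0.386). So TASOR reads that did match a transcript numbered 40 in control and 113 after knockdown, then 34 and 40 in the others. Both treatments against knockdown passed in the opposite direction at 22.8 points (adjusted p = 0.0167), where 3.43% of genes were called higher, and it shares the knockdown library.

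PPHLN1 went the other way in the knockdown library, where 86 of 133 reads (64.7%) fell in no transcript, against 41 of 85 in the control (48.2%), 19 of 59 with 5-azacytidine (32.2%) and 23 of 56 with both (41.1%). Both treatments against knockdown passed the test at -23.6 points (adjusted p = 0.0433), where 5.64% of genes were called lower. Knockdown against control was 16.4 points higher and did not pass (adjusted p = 0.115). No member was called in both pairs for either treatment, where 0.945% and 0.958% of genes were.

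**Figure D3:**
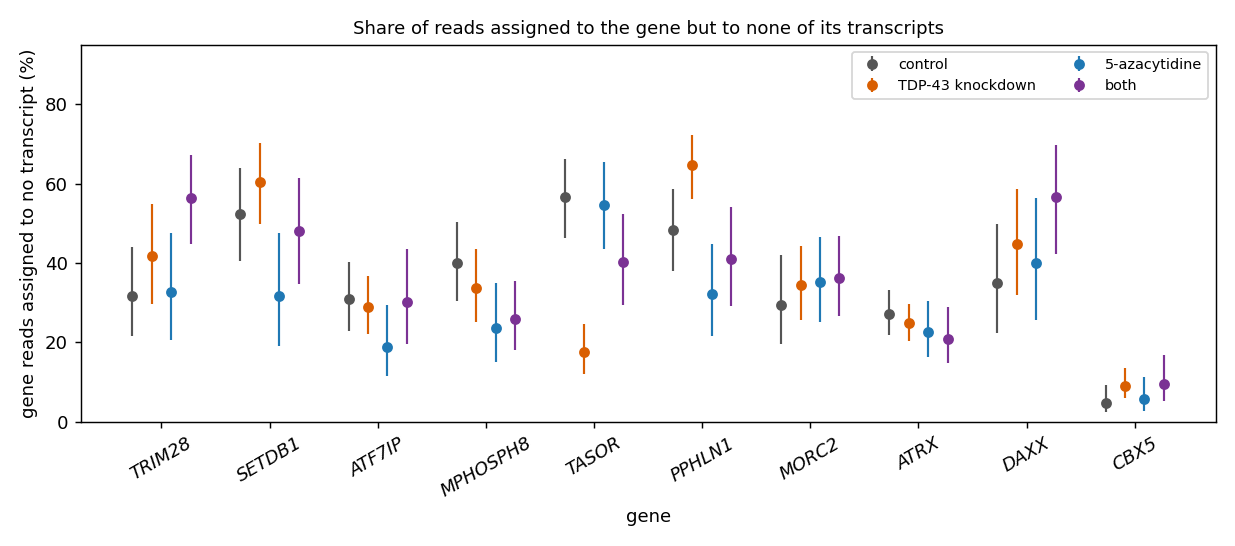
Percent of each gene's reads that were assigned to none of its transcripts, in the 4 libraries, with bars for 95% Wilson intervals. TASOR in the knockdown library, at 17.5%, lies below its other 3 libraries at 40.3 to 56.5%, and CBX5 stays under 10%.

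The annotation held 162 transcripts of the 10 genes, of which 3 were unannotated, and 54 had at least 1 read. Reads that cover a whole transcript were few for the long genes: over the 4 libraries 1.98% of ATRX transcript reads were full-length, where the main transcript is 11165 bases, against 37.0% for TRIM28, whose main transcript is 3364 bases. TRIM28 and MPHOSPH8 were read as nearly a single transcript each, ENST00000253024 at 95.7 to 100% and ENST00000361479 at 98.5 to 100% of transcript reads. The share of a transcript among its gene's reads was compared by Fisher's exact test over 15564 transcripts, 30 of them in members, and a call needed an adjusted p under 0.05 and a change of 10 percentage points or more, repeated with the same sign by the other pair.

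For the knockdown, 3 of the 30 member transcripts were called, where 0.7% of all were, and for 5-azacytidine none was, where 1.12% were. Of the 3, 2 belong to ATF7IP. ENST00000261168 held 58.3 of 74 ATF7IP transcript reads in control, 0 of 106 after knockdown, 52.3 of 60 after 5-azacytidine and 16.8 of 37 after both. ENST00000536444 held 0, 88.6, 1.32 and 16.8 of the same totals. ENST00000261168 was thus the main one in the control and 5-azacytidine libraries, and ENST00000536444 in the knockdown library. With both treatments the estimate split the reads evenly between them. The changes were -78.4 and -40.7 points for the first and 84.0 and 44.3 for the second (adjusted p = 4.03e-29, 0.00146, 1.74e-30 and 8.04e-06).

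The 2 ATF7IP transcripts have 15 exons each, start at 14365682 and 14365729 and differ in 3 coding bases at 1 splice acceptor (chromosome 12, 14434337 to 14434339). The joined exons, read from GENCODE 29 transcripts with the 3 bases in capitals, show the difference at this acceptor.
ATF7IP longer: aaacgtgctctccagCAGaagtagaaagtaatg
ATF7IP shorter: aaacgtgctctccagaagtagaaagtaatg

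Neither transcript had a uniquely assigned read in any library, so the split between them rests on the estimate alone. Summed, they held 78.8%, 83.6%, 89.3% and 91.1% of ATF7IP transcript reads, and those 4 Wilson intervals overlap. Other ATF7IP transcripts carry the same acceptors and do have unique reads: 7 with the longer and 3 with the shorter form in control, 5 and 7 after knockdown, 4 and 0 with 5-azacytidine, and 2 and 1 with both. In these few reads both forms were seen in 3 of the 4 libraries. Their Wilson intervals overlap, and a shift between the libraries was not tested.

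SETDB1 has an acceptor pair of the same kind in its coding sequence (chromosome 1, 150949367 to 150949369), shown for comparison with the added bases in capitals.
SETDB1 longer: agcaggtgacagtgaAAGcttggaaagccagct
SETDB1 shorter: agcaggtgacagtgacttggaaagccagct

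The acceptor used by ENST00000692314, the main SETDB1 transcript, held 73.3%, 84.5%, 62.3% and 86.5% of the estimated reads across this junction. These were shares of 30, 33.0, 26 and 26 reads, and the intervals overlap. The shares were not matched to the longer or the shorter form. DAXX has acceptors 3 bases apart in a stretch outside its GENCODE 29 coding sequence (chromosome 6, 33321975 to 33321977). ENST00000374542, with the longer form, held 11.4, 6.34, 14.9 and 6.53 reads and ENST00000266000, with the shorter, 0, 6.34, 0 and 6.53, with no uniquely assigned read for either in any library. None of these DAXX changes passed the test.

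The remaining call was TASOR ENST00000683822, with 5.53 of 40 control reads, 60.2 of 113 after knockdown, 1.89 of 34 after 5-azacytidine and 21.6 of 40 after both. Both knockdown libraries held it at 53.2 to 53.9% and both libraries without the knockdown at 5.56 to 13.8%. The changes were 38.1 and 49.1 points (adjusted p = 0.00107 and 0.000332). It uses an acceptor of the last intron 277 bases downstream of that of ENST00000493960 (the bases between are chromosome 3, 56623567 to 56623843), and the stop codon of ENST00000493960 lies within those 277 bases. The first bases after each acceptor are in capitals.
TASOR upstream acceptor: ttgagtcgcagtcagATGCTGTTTTGACAT
TASOR downstream acceptor: ttgagtcgcagtcagCTCTTTTAGAAAACG

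With all TASOR transcripts grouped by this acceptor, the downstream one took 51.7% of control reads (Wilson bounds 37.5 and 67.1%), 58.4% after knockdown (49.2 and 67.1%), 37.7% after 5-azacytidine (23.9 and 55.0%) and 64.4% after both (49.5 and 77.9%). These 4 intervals overlap, and the first 2 libraries lay far closer than for ENST00000683822 alone. Among uniquely assigned reads the downstream acceptor held 3 of 11, 13 of 47, 3 of 17 and 1 of 8, which are 27.3%, 27.7%, 17.6% and 12.5%. ENST00000459993, a shorter transcript with the downstream acceptor, held 14.1, 3.43, 8.77 and 2.91 reads, lower in both knockdown libraries. ENST00000683822 itself had 0, 11, 1 and 0 uniquely assigned reads, in which the second pair moved by -5.88 points.

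**Figure D4:**
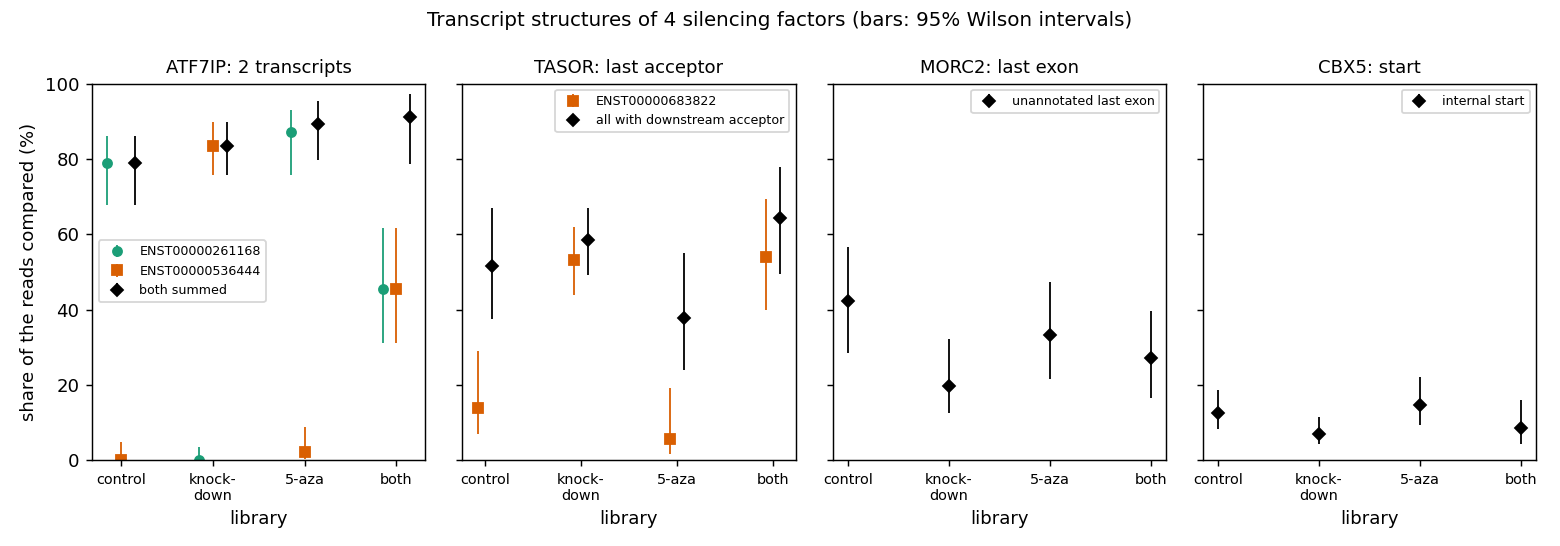
Shares of estimated reads, in percent with 95% Wilson intervals, for 2 ATF7IP transcripts and their sum, for a TASOR transcript and all transcripts with its acceptor, for the unannotated last exon of MORC2 and for the internal start of CBX5, in the 4 libraries. The ATF7IP sum stays between 78.8 and 91.1% while its 2 parts trade places, and the TASOR share by acceptor differs less between control and knockdown than the share of the single transcript.

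PPHLN1 and MORC2 were read in part as transcripts that the annotation lacks. The main PPHLN1 transcript in every library was unannotated (BambuTx1218, 11 exons, 3319 bases), with 24.6 of 44, 29.5 of 47, 20.7 of 40 and 17.5 of 33 transcript reads, and 11, 12, 10 and 8 uniquely assigned reads. Each of its 10 introns is annotated, in other combinations. Its closest annotated transcript, ENST00000432191, holds a coding exon of 57 bases that BambuTx1218 skips (chromosome 12, 42384940 to 42384996), and its acceptor before the next difference adds 18 coding bases. The skipped exon reads as follows.
PPHLN1 exon: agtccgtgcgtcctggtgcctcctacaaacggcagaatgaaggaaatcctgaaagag

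Over all PPHLN1 transcripts that span it, this exon was skipped in 84.5%, 74.0%, 74.3% and 74.9% of estimated reads and in 18 of 19, 15 of 18, 17 of 20 and 13 of 16 unique reads. Skipping was the main form in all 4 libraries, and their intervals overlap.

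The MORC2 transcript BambuTx3735 (27 exons, 6010 bases) took 18.2 of 43 control reads, 12.5 of 63 after knockdown, 16.0 of 48 after 5-azacytidine and 14.4 of 53 after both, with 14, 8, 12 and 10 unique reads and 3, 1, 2 and 6 full-length reads. It shares 25 of its 26 introns with ENST00000397641. The remaining intron (chromosome 22, 30911432 to 30926724) leaves the annotated last exon 78 bases past the GENCODE 29 stop codon and joins an exon of 1676 bases (30909756 to 30911431), which lies 13698 bases beyond the annotated end of MORC2. The GENCODE 29 stop codon is thus kept, and the last exon of ENST00000397641 is cut short after it.

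That distal exon overlaps 4 transcripts of an annotated gene on the same strand, ENSG00000294008, and all 4 have an exon that begins at the same acceptor. This gene itself had 2, 5, 7 and 2 reads. The share of BambuTx3735 was 42.3% (28.4 to 56.7%), 19.9% (12.5 to 32.2%), 33.4% (21.7 to 47.5%) and 27.1% (16.4 to 39.6%), lower in both libraries with the knockdown than in their partners, and neither change passed the test (adjusted p = 0.223 and 1.00). ENST00000397641, the main annotated form, had 23.8, 49.5, 30.6 and 38.6 reads, the fewest in the control library.

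DAXX also had an unannotated transcript, BambuTx7628, with 5.71 and 4.09 reads in the control and knockdown libraries and 0 in both with 5-azacytidine. It begins in an unannotated first exon of 52 bases (chromosome 6, 33322665 to 33322716). At 21 and 20 DAXX transcript reads in the libraries with the drug, a count of 0 allows up to 3 reads, and with 2 unique reads in each library without the drug a difference was not detectable at this depth.

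CBX5 was read from a pair of starts that lie 20530 bases apart. The upstream start gave ENST00000209875, whose single main form of 11546 bases held 133, 191, 93.6 and 82.0 reads. The internal start gave shorter transcripts such as ENST00000439541 of 1832 bases. The internal start took 20 of 158 control reads (12.7%, Wilson bounds 8.35 and 18.7%) and 15 of 211 after knockdown (7.11%, 4.36 and 11.4%). After 5-azacytidine it took 17.2 of 116 (14.8%, 9.36 and 22.2%) and after both 8 of 94 (8.51%, 4.38 and 15.9%). The 4 intervals overlap. Of the CBX5 transcript reads 153, 209, 111 and 94 were assigned uniquely. Among the fewer full-length reads the internal start took larger shares, 19 of 37 (51.4%), 12 of 31 (38.7%), 17 of 26 (65.4%) and 8 of 16 (50%), and these 4 intervals overlap as well. The sequences of the promoters at both starts are given because the drug acts on the methylation of CG pairs, which are in capitals. Both are RefSeq windows of 300 bases from build GRCh38.p14, minus strand, at chr12:54280073-54280372 and chr12:54259537-54259836.
CBX5 upstream promoter: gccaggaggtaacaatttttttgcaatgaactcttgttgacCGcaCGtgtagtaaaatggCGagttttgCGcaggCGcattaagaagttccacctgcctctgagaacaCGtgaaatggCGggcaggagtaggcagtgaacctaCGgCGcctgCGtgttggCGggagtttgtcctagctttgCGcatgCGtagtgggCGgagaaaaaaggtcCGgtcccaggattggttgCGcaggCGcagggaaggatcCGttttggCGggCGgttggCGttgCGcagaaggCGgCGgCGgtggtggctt
CBX5 internal promoter: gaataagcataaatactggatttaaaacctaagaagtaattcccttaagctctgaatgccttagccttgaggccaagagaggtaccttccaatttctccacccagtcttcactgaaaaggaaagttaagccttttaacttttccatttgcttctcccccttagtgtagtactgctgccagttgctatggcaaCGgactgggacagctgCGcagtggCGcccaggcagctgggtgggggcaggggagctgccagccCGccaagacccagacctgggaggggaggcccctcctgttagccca

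The motif CG, which reads the same on both strands, occurs 25 times in the upstream window and 4 times in the internal one. Of 35116 RefSeq promoter windows of this length, 32.0% hold at least 25 and 75.5% at least 4, and the median is 14. RefSeq windows were found for 7 of the 10 members, all but ATRX, DAXX and TRIM28. Across their 18 windows the number of CG pairs ranged from 0, at an internal ATF7IP start, to 43 in 2 TASOR windows.

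ATRX was read mostly as ENST00000373344, with 119 of 172, 202 of 240, 86.1 of 106 and 82.9 of 98 transcript reads, or 69.4%, 84.1%, 81.2% and 84.6%. Only the control library lay lower. The rise of 15.0 points in knockdown against control passed the test (adjusted p = 0.0097), where 6.8% of transcripts were called, and both treatments against 5-azacytidine gave 3.56 points (adjusted p = 1.00). Its counterpart in the control library was ENST00000675732, a shorter transcript with an internal start, which held 22.2, 3.85, 0 and 2.03 reads and no uniquely assigned read in any library. It was lower by test in knockdown against control (-11.1 points, adjusted p = 0.000248) and in 5-azacytidine against control (-12.8 points, adjusted p = 0.000917, where 5.75% of transcripts were called), and the 2 comparisons share the control library. ENST00000395603 lacks a coding exon of 114 bases (chromosome X, 77693824 to 77693937) and held 11.7, 15.1, 14.7 and 5.91 reads. Over all ATRX transcripts that span it, the exon was skipped in 8.50%, 6.81%, 14.1% and 6.58% of estimated reads, and the intervals overlap. Its sequence is shown as the coding stretch that separates ENST00000395603 from ENST00000373344.
ATRX exon: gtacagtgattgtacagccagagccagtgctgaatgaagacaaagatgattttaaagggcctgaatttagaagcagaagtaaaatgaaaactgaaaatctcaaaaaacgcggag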

How the data were processed

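The authors deposited tables of estimated counts per gene and per transcript, estimated counts of full-length reads, counts of reads assigned to 1 transcript alone, and CPM values, which were used only to check their denominator. Column names in the deposited tables give minimap2 and hg38, and the annotation names Bambu, per the file headers; versions, settings and strand use are not given in the sources used here. All deposited gene values were even numbers (largest remainder 0.00031), so counts were divided by 2 and rounded. Effective library sizes came from edgeR 4.0.16 (TMM), and ratios used a pseudocount of 0.5. DESeq2 1.42.0 and edgeR additive models were alternatives. Fisher tests used transcripts with at least 10 reads in genes with a mean of at least 20 transcript reads. Of 133 member transcripts shared with GENCODE 29, 133 had the same exons. Tests were tested on simulated data. Intervals are 95%, Wilson for shares and Clopper-Pearson for ratios, and cover counting error alone: reads of amplified cDNA need not be independent. The members and gene lists were chosen with earlier results of these data known. Named were all 10 members, related genes called in both pairs (at most 3 per list, direction and treatment), transcripts with at least 5 reads and 10% of their gene's reads in a library, and unannotated transcripts with at least 5 reads. Groups of transcripts by structure were formed after their values were seen and have no test.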

Additional observations from a re-analysis of the deposited data

How the results depend on the processing

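No paired analysis was possible because each group has 1 library and the groups share a single replicate number, and for the same reason no library could be left out. The alternatives changed the scaling, the minimum of reads, the pseudocount, the halving, the count table or the model. Of 429 values under them, 368 were graded as the same. For counts of members, this grade did not require an equal count or the same genes. In both treatments against knockdown, 5 called members and the 4 under total-read scaling were graded the same. For single genes, the pseudocount left the p-values as they were, and the minimum of reads left the ratios and unadjusted p-values. The total of 368 therefore overstates how far the results were put to a test. No alternative gave a member called at gene level in both pairs. The members called in knockdown against control rose from 0 to 1 in uniquely assigned counts (TASOR). In both treatments against 5-azacytidine they rose to 1 under a minimum mean of 20 reads (TRIM28) and to 1 without halving, and in 5-azacytidine against control to 1 without halving (MORC2). In both treatments against knockdown they went from 5 to 2 in uniquely assigned counts (TASOR and CBX5) and to 0 in full-length counts. Scaling by total gene reads left 4 there, with PPHLN1 and CBX5 no longer called and MPHOSPH8 added. The 3 member transcripts called for the knockdown fell to 0 of 12 tested in uniquely assigned and to 0 of 3 in full-length counts. Of all transcripts tested, 0.0624% and 0.130% were called there, against 0.7% in the main counts. The 2 ATF7IP transcripts had no uniquely assigned read and so could not be called in those counts. Without halving, 1 member (PPHLN1) was called for 5-azacytidine in its share of reads without a transcript.

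Directions turned mostly in the smaller count tables. In uniquely assigned counts the log2 ratio of knockdown to control became 0.16 for TRIM28, 0.25 for MPHOSPH8, -0.19 for PPHLN1 and -0.00258 for MORC2. Both treatments against 5-azacytidine became 0.18 for PPHLN1 and 0.010 for CBX5. 5-azacytidine against control became 0.15 for MPHOSPH8, 0.14 for PPHLN1 and -1.04 for DAXX, and both treatments against knockdown 0.50 for PPHLN1 and -0.49 for DAXX. In full-length counts knockdown against control became 0.29 for TRIM28, -0.99 for PPHLN1 and -0.17 for CBX5, both treatments against 5-azacytidine 0.32 for PPHLN1, 5-azacytidine against control -0.59 for DAXX, and both treatments against knockdown -0.075 for TRIM28, 1.07 for PPHLN1 and -0.35 for DAXX. With total gene reads as the scale, DAXX in knockdown against control became -0.18, and with DESeq2 size factors -0.058; 5-azacytidine against control with those factors became -0.025 for TASOR and -0.025 for DAXX. The share of TASOR ENST00000683822 in both treatments against 5-azacytidine became -5.88 points in uniquely assigned counts. With the ATF7IP pair summed, which was chosen after seeing the data, the changes of ENST00000261168 became 4.75 and 1.74 points. The cause of these changes was not tested. Total-read scaling moved the median gene in knockdown against control from 0.13 to -0.09.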
